A study of Monodelphis domestica with 9 samples.

Results

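The proteasome genes of the opossum Monodelphis domestica were examined in tissue from the developing middle ear. Members were the genes whose symbol is PSMA, PSMB, PSMC, PSMD, PSME, PSMF or PSMG followed by a number, and 40 of the 22725 genes in the deposited table met this rule. The 40 genes have 67 groups of transcripts with a shared transcription start site (TSS groups), and the FPKM (fragments per kilobase of transcript, scaled to the size of the library) of these groups was summed for each gene. PSMA1, PSMA2, PSMA7, PSMB2, PSMB6, PSMD8, PSMD9 and PSME3 belong to the same families and were not analysed here.

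Meckel's cartilage (MC), the rod that joins the lower jaw to the malleus in the pouch young of marsupials, was captured by laser together with the malleus around the place where they connect. There were 3 groups, P16, P18 and P20 (16, 18 and 20 days after birth), with 3 animals in each, and the labels give no treatment, strain or genotype for any of them. Because laser capture yields little RNA, it was amplified before sequencing, and some perichondrium was taken with the cartilage. The values are 1 FPKM per TSS group for each of 3 conditions coded q1, q2 and q3, and the sources used here do not pair these codes with the stages, so the codes are kept throughout.

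The table holds no value of a single animal. No spread between animals, standard error or p-value could therefore be computed, the depth of each library is unknown, and every difference below is a description of condition values without a test. Values of q3 were listed in full for 29 of the 40 genes. The other 11 (PSMB5, PSMB7, PSMB10, PSMC1, PSMC2, PSMC6, PSMD5, PSMD7, PSMD10, PSMD13 and PSME2) are given for q1 and q2 only, because the table ends before its rows for q3 are complete.

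The proteasome is the protease that breaks down most short-lived and misfolded proteins of the cell after they have been tagged with ubiquitin. Its 20S core is a barrel of alpha rings (PSMA) around beta rings (PSMB) that carry the catalytic sites, and the 19S particle that caps it unfolds substrates with a ring of ATPases (PSMC) and recognises and deubiquitinates them with the remaining base and lid subunits (PSMD). Under interferon and in cells of the immune system the subunits PSMB8, PSMB9 and PSMB10 replace the catalytic PSMB5, PSMB6 and PSMB7, forming the immunoproteasome, which makes peptides for MHC class I. PSME genes encode caps that open the core without the 19S particle, PSMF1 encodes an inhibitor, and PSMG genes encode chaperones that assemble the core. Cartilage, bone and bone-resorbing clasts all use the constitutive particle.

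Levels differed more between the genes than between the conditions: among members with at least 1 FPKM the highest was 99.7-fold above the lowest in q1, and the largest ratio of 1 gene between conditions was 17.5-fold. Of the 40 genes, 31 had at least 1 FPKM in every condition listed. PSMB3, a beta subunit with no catalytic site, was the most abundant, at 126, 182 and 513 FPKM in q1, q2 and q3, and made up 30.6%, 25.6% and 23.6% of the summed FPKM of the 29 members listed in full for q3. Its sum joins 2 gene models at the same locus, with 99.0, 137 and 363 FPKM in one and 26.9, 44.7 and 150 FPKM in the other. The next core subunit in q1, the catalytic PSMB7, stood at 42.5 FPKM in q1 and 72.2 in q2.

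Subunits that are built in equal numbers into the particle thus had unequal transcript levels per length. Among the 9 core subunits measured in q1, the lowest was the catalytic PSMB5 with 5.59 FPKM, so that PSMB3 was 22.5-fold higher. Among the 14 subunits of the 19S particle with at least 1 FPKM, levels in q1 ran from 1.26 FPKM for the ATPase PSMC2 to 40.5 FPKM for the lid subunit PSMD7, a range of 32.1-fold. The order of the members was nearly the same in each condition, with a Spearman correlation across genes of 0.96 between q1 and q2 (35 genes), 0.92 between q1 and q3 (26 genes) and 0.97 between q2 and q3 (26 genes). Genes are not independent replicates, the same libraries stand behind all of these points, and transcript length and mappability are shared between conditions.

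**Figure D1:**
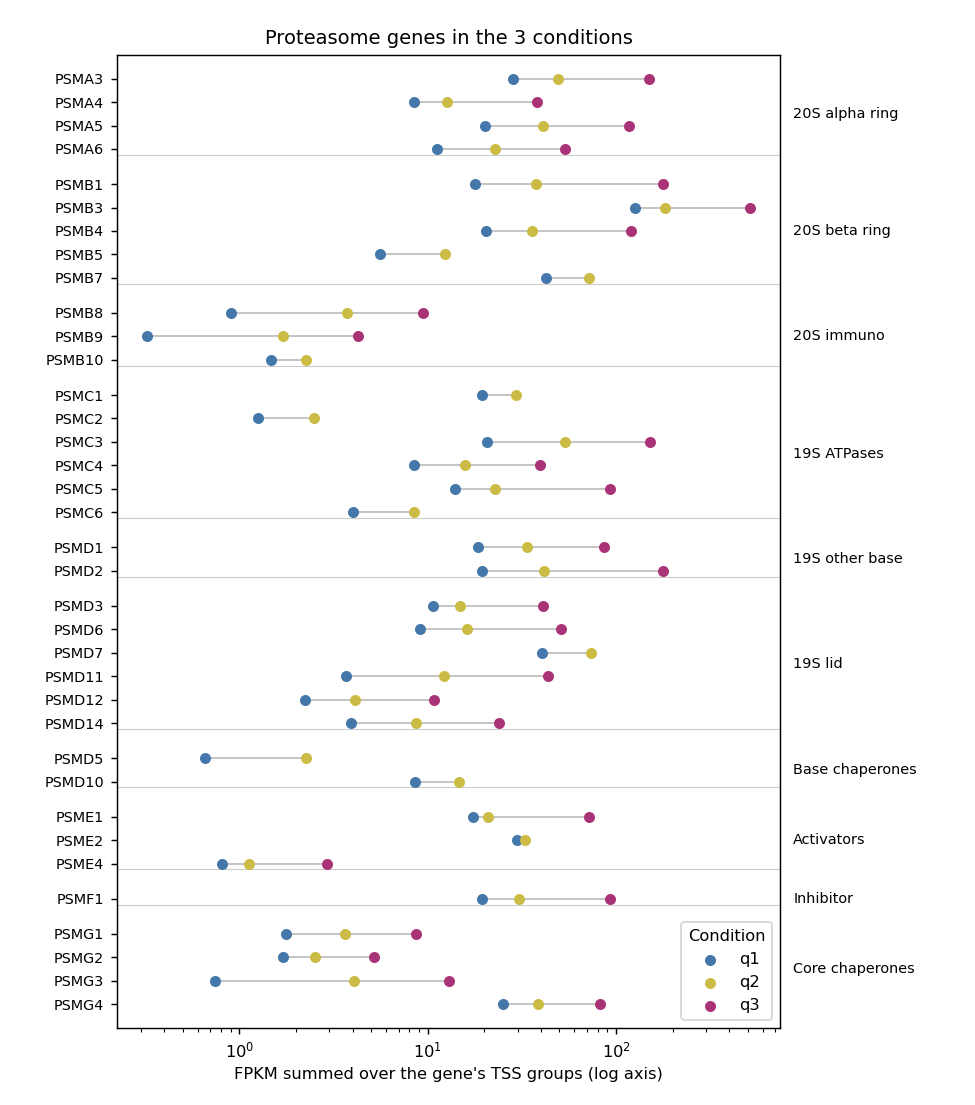
Summed FPKM of each proteasome gene (log axis) in conditions q1, q2 and q3, with genes in rows grouped by role and a grey line joining the values of a gene. PSMB3 lies farthest to the right in every condition, PSMB8, PSMB9, PSMG3 and PSMD5 lie below 1 FPKM in q1, and genes with no q3 point are those not listed in full for q3.

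Almost no signal was listed for 4 members. PSMB11, the beta subunit of the thymoproteasome, which in other mammals is restricted to epithelial cells of the thymus cortex, was listed at 0 in all conditions. PSMA8, the alpha subunit known from the testis of other mammals, had 0.0221 FPKM in q1, 0 in q2 and 0.119 in q3. PSMD4, the ubiquitin receptor of the base, had 0.0700, 0.0270 and 0.00892 FPKM, and the lid subunit PSMD13 was listed at 0 in q1 and q2.

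For PSMD4 and PSMD13 the place of the gene model matters, because both are constitutive subunits in other species. The deposited PSMD4 lies on chromosome 7 (start 28690848, end 28692684, in the deposited table's coordinates, for which the sources used here name no genome build). In the RefSeq annotation of assembly mMonDom1, PSMD4 lies between PIP5K1A and ZNF687 on another chromosome than the genes around the deposited model. PSMD13 lies on an unplaced sequence in the deposited table. All 40 symbols matched that annotation. These were the 2 not on the RefSeq chromosome that holds the largest share of the genes of their deposited one. That share was 99.5% of 577 genes for PSMD4. For the unplaced sequences of PSMD13 it was only 25.5% of 353 genes, so this comparison cannot tell whether the PSMD13 model is misplaced. Whether their low values belong to the genes known by these names was not tested.

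Most genes in the table had higher FPKM in q3 than in q1, and the proteasome genes were read against that shift. Ratios were computed for genes with both values above 0 and a mean of at least 1 FPKM over the conditions compared. The median log2 ratio over all such genes was 0.61 for q2 against q1 (10337 genes), 1.96 for q3 against q1 (8837 genes) and 1.33 for q3 against q2 (8782 genes), and 77.5%, 90.4% and 90.3% of them had a ratio above 0. The 3 comparisons share their conditions and are not independent of each other. Below, the distance of a gene is its log2 ratio minus this median, and 1 unit was taken as standing apart.

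In q2 against q1, 35 of the 40 members passed the filter and all 35 were higher in q2. Their median log2 ratio was 0.86, a distance of 0.25 from the median of all genes, and 28 lay above that median and 7 below it, where 50% of all genes lie above by construction. Among them 5 (PSMG3, PSMB9, PSMB8, PSMD5 and PSMD11) lay at least 1 unit above, or 14.3% of the 35, beside 8.67% of all genes. Of the 5, all but PSMD11 were under 1 FPKM in q1 and passed the filter only through q2, where they were high, so this count is partly set by the filter and is given as a description. None lay at least 1 unit below, beside 12.2% of all genes. The distances of the members had an interquartile range of 0.46, and the log2 ratios of all genes one of 0.98. The spread was narrower at high level. Among genes with a mean of at least 10 FPKM the range was 0.56, and among the 22 members at that level 0.29.

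In q3 against q1, 26 members passed and all were higher in q3, with a median log2 ratio of 2.34 and a distance of 0.38. Of these, 22 lay above the median, as 50% of all genes do, and 4 below it (PSMG2, PSMG4, PSME4 and PSMD3). A distance of at least 1 unit above was found for 6 (PSMG3, PSMB9, PSMD11, PSMB8, PSMB1 and PSMD2), or 23.1%, beside 14.1% of all genes, and of at least 1 unit below for none, beside 20.9%. PSMG3, PSMB9 and PSMB8 were under 1 FPKM in q1 and passed the filter only through q3, so this count too is partly set by the filter. With the highest TSS group of each gene alone, PSMD2 was at 0.62 and 5 members stood apart. In q3 against q2 the median distance of the 26 members was 0.17, 21 were above the median (50% of all genes) and 5 below, and none stood apart by 1 unit in either direction, beside 9.35% of all genes above and 14.2% below.

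The small distance of the family as a whole depended on the genes it was set against. Abundant genes had higher ratios, with medians of 0.88, 2.38 and 1.52 in q2 against q1, q3 against q1 and q3 against q2 among genes with a mean of at least 10 FPKM. Against those medians 16 of the 35 members lay above and 19 below in q2 against q1, 13 above and 13 below in q3 against q1, and 11 above and 15 below in q3 against q2. Among the members that themselves had a mean of at least 10 FPKM, 6 of 22 lay above and 16 below in q2 against q1, 10 of 19 above and 9 below in q3 against q1, and 10 of 19 above and 9 below in q3 against q2. Of these abundant members 0 stood 1 unit above in q2 against q1, beside 4.13% of all abundant genes, and 1 (PSMD11) in q3 against q1, beside 7.81%. PSMB8, PSMB9 and PSMG3 themselves had means below 10 FPKM. In q2 against q1 and in q3 against q1 they lay at least 1 unit above the abundant genes' median. PSMB8 was just at the limit of 1 unit in the latter. Each of these genes was under 1 FPKM in q1 and passed the filter only through the other condition. A comparison with abundant genes therefore cannot tell whether they stand apart from genes of similarly low level. In q3 against q2 no member stood 1 unit above the abundant genes' median, beside 4.24% of the abundant genes.

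**Figure D2:**
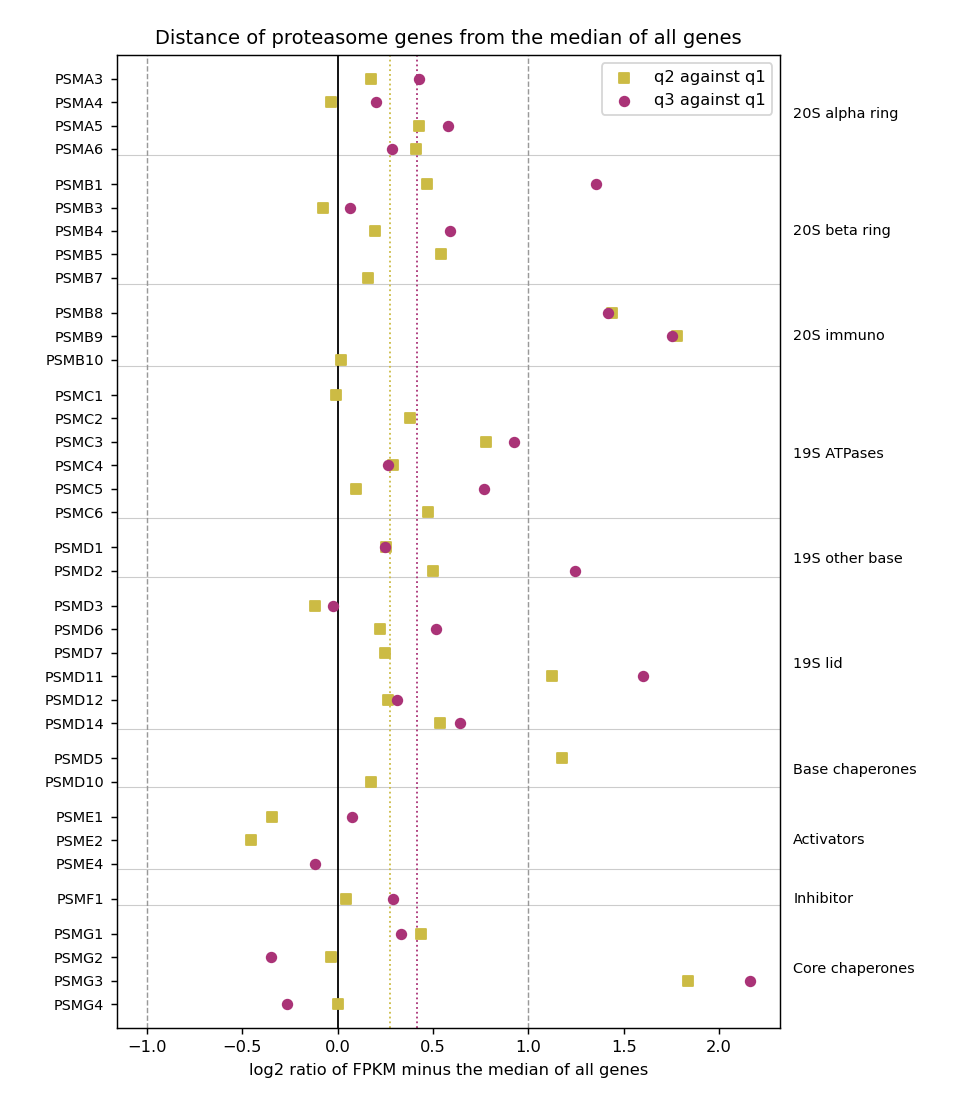
Log2 ratio of FPKM minus the median of all genes with a mean of at least 1 FPKM, for q2 against q1 (squares) and q3 against q1 (circles), with genes in rows grouped by role. The dashed lines mark 1 unit below and above the median, the dotted lines mark the median of genes with a mean of at least 10 FPKM in each comparison, and PSMG3, PSMB9, PSMB8 and PSMD11 lie right of the upper dashed line in both comparisons.

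Other complexes made of many subunits give a scale for these numbers. The CCT chaperonin, the barrel that folds actin and tubulin, had a median distance of 0.47 in q2 against q1 (7 genes) and 0.56 in q3 against q1 (6 genes). Cytosolic ribosomal proteins had a median distance of 0.27 in q2 against q1 (56 genes) and 0.07 in q3 against q1 (44 genes). The 17 measured genes of the 26S particle, core and 19S together, had a median distance of 0.52 in q3 against q1 with an interquartile range of 0.51, against a range of 0.44 for CCT and 0.35 for the ribosomal proteins. The SD over genes, which single genes far from the rest can set, was 0.46 for the 26S genes, 0.29 for CCT and 0.69 for the ribosomal proteins.

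**Figure D3:**
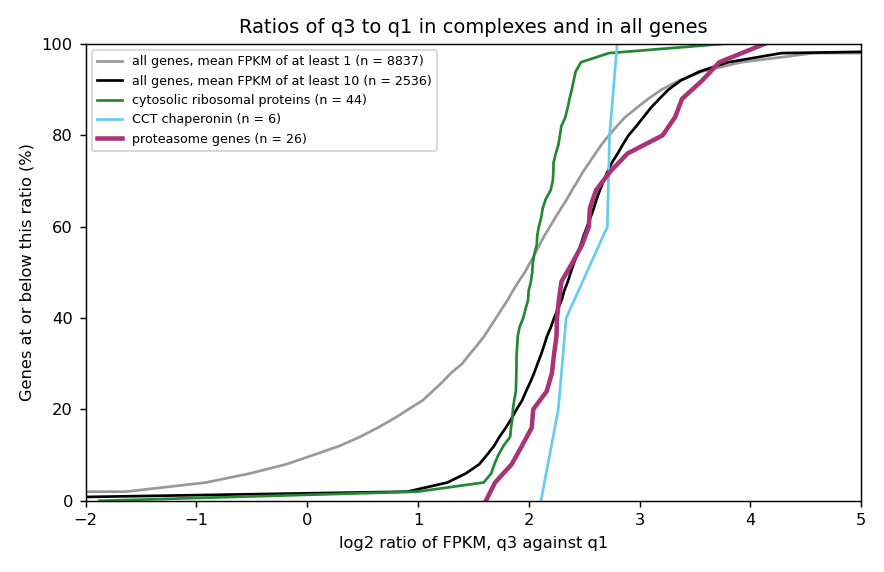
Share of genes (%) at or below each log2 ratio of FPKM for q3 against q1, for 26 proteasome genes, 6 CCT genes, 44 cytosolic ribosomal proteins, all genes with a mean of at least 1 FPKM (8837) and all genes with a mean of at least 10 FPKM (2536). The proteasome line runs right of the line of all genes up to the highest ratios and crosses the line of the abundant genes, and the ribosomal proteins lie left of the proteasome line over most of their range.

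Of the alpha ring, which gates the entry to the core, 4 genes passed the filter, with distances of 0.20 to 0.58 in q3 against q1. In q2 against q1 the interquartile range of their distances, 0.29, was close to 0.31 for the constitutive beta ring and 0.30 for the ATPases. PSMA3 had 28.5, 49.0 and 149.5 FPKM in q1, q2 and q3, and PSMA5 had 20.1, 41.2 and 117 FPKM. PSMA5 lay 0.58 above the median of all genes in q3 against q1, the most of the 4 alpha subunits that passed the filter. PSMA4 had 8.49, 12.6 and 38.0 FPKM and lay 0.20 above, the least of the 4. PSMA6 had 11.3, 22.8 and 53.6 FPKM and was the only one of them below the median in q3 against q2, with a distance of -0.10.

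The constitutive beta ring held a gene that differed from its neighbours. PSMB1, a subunit without a catalytic site, had 17.8, 37.5 and 178 FPKM in q1, q2 and q3, and its distance was 0.47 in q2 against q1, 1.36 in q3 against q1 and 0.91 in q3 against q2. PSMB4, also without a catalytic site, had nearly the same level in q1 with 20.5 FPKM. It had 35.6 FPKM in q2 and 119.9 in q3, a distance of 0.59 in q3 against q1. PSMB3 had a distance of 0.06. The catalytic PSMB5 had 5.59 FPKM in q1 and 12.4 in q2, a distance of 0.54, and the catalytic PSMB7 a distance of 0.16. Over core subunits as a group the median distance was 0.19 in q2 against q1 (9 genes) and 0.43 in q3 against q1 (7 genes).

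Of the 3 immunoproteasome subunits, PSMB8 and PSMB9 stood at least 1 unit above the median in q2 and in q3 against q1. This held without a pseudocount and with one of 0.1 FPKM. PSMB10, compared in q2 against q1 only, did not stand apart. PSMB8, which replaces PSMB5, had 0.900 FPKM in q1, 3.72 in q2 and 9.40 in q3. PSMB9, which replaces PSMB6, had 0.324 FPKM in q1, 1.70 in q2 and 4.27 in q3. PSMB8 was thus 4.13-fold higher in q2 than in q1 and 10.4-fold higher in q3 than in q1, and PSMB9 was 5.23-fold and 13.2-fold higher. Both were low in q1, where they ranked at percentile 55.1 and 40.1 of all genes by level, so their ratios rest on small values. With a pseudocount of 1 FPKM added to every value, the distance in q2 against q1 was 0.87 for PSMB8 and 0.59 for PSMB9, and in q3 against q1 it was 0.94 and 0.48, so neither gene stood apart by 1 unit. The mean of PSMB9 in q2 against q1 was 1.01 FPKM, just over the filter, and with the highest TSS group of each gene alone it was 0.964 FPKM and PSMB9 did not pass there. The median distance of the immuno subunits in q2 against q1 was then 0.87 in place of 1.44, but it covered only PSMB8 and PSMB10. PSMB8 itself lay at 1.39 in that setting, and PSMB9, under the filter, at 1.90.

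Both genes had about the same distance in q2 against q1 as in q3 against q1. Against q1 it was 1.44 for PSMB8 and 1.78 for PSMB9 in q2, and 1.42 and 1.76 in q3. In q3 against q2 both lay at the median of all genes, with distances of 0.00. PSMB10, which replaces PSMB7, did not stand apart in q2 against q1. It had 1.47 FPKM in q1 and 2.26 in q2, a distance of 0.02 with TSS groups summed. The size of this distance depended on the sum, because its leading TSS group alone had 0.973 FPKM in q1 and 1.97 in q2. The log2 ratio of that group lay above 0.66, the median of all genes taken by their highest TSS group, by less than 1 unit. PSMB10 is not listed in full for q3, so its distances there could not be compared.

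PSMB8 and PSMB10 stayed well below the subunits they replace. PSMB8 was at 16.1% of the FPKM of PSMB5 in q1 and 30.0% in q2, and PSMB10 was at 3.46% of PSMB7 in q1 and 3.14% in q2. Neither PSMB5 nor PSMB7 is listed in full for q3, so PSMB1, PSMB4 and PSMB3 were used for the proportion in q3. In q1, q2 and q3 PSMB8 was at 5.05%, 9.91% and 5.28% of PSMB1. It was at 4.4%, 10.4% and 7.84% of PSMB4 in the same order. PSMB9 was at 1.82%, 4.52% and 2.40% of PSMB1 and at 1.58%, 4.76% and 3.56% of PSMB4. The proportion was highest in q2 by each of these 4 measures, and in q3 it stood between q1 and q2. How far q3 stood from q2 depended on the subunit used, and PSMB1 itself lay 0.91 above the median in q3 against q2. Set against PSMB3, which lay 0.16 above there, PSMB8 was at 0.72%, 2.04% and 1.83% and PSMB9 at 0.26%, 0.93% and 0.83%. By PSMB3 the order was the same, but q3 was close to q2.

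PSMB8 and PSMB9 lie in the MHC region, and their FPKM was estimated at 1 merged locus with its neighbours on chromosome 2 (start 270105743, end 270475955, in the deposited coordinates, as for PSMD4). In RefSeq the order is PSMB8, TAP1, PSMB9, where TAP1 encodes one chain of the transporter that carries proteasome products into the endoplasmic reticulum. TAP1 had 0.264 FPKM in q1, 0.778 in q2 and 2.14 in q3, a distance of 0.95 in q2 against q1 and 1.05 in q3 against q1. A gene named MHC-I at the locus had 1.01, 4.37 and 18.4 FPKM, with distances of 1.5 and 2.22. A second entry of that name at the locus, joined to another gene identifier, was higher in q1 and nearer to the median, with 2.81, 5.79 and 13.7 FPKM and distances of 0.44 and 0.32. BRD2 and MODO-DMA at the same locus were nearer to the median. BRD2, which encodes a chromatin reader, had 8.30, 16.2 and 36.9 FPKM with distances of 0.36 and 0.19, and MODO-DMA, an MHC class II gene, had 2.13, 2.99 and 8.78 FPKM with distances of -0.12 and 0.08. TAP1 was under a mean of 1 FPKM in q2 against q1, and its ratio there is outside the counts.

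**Figure D4:**
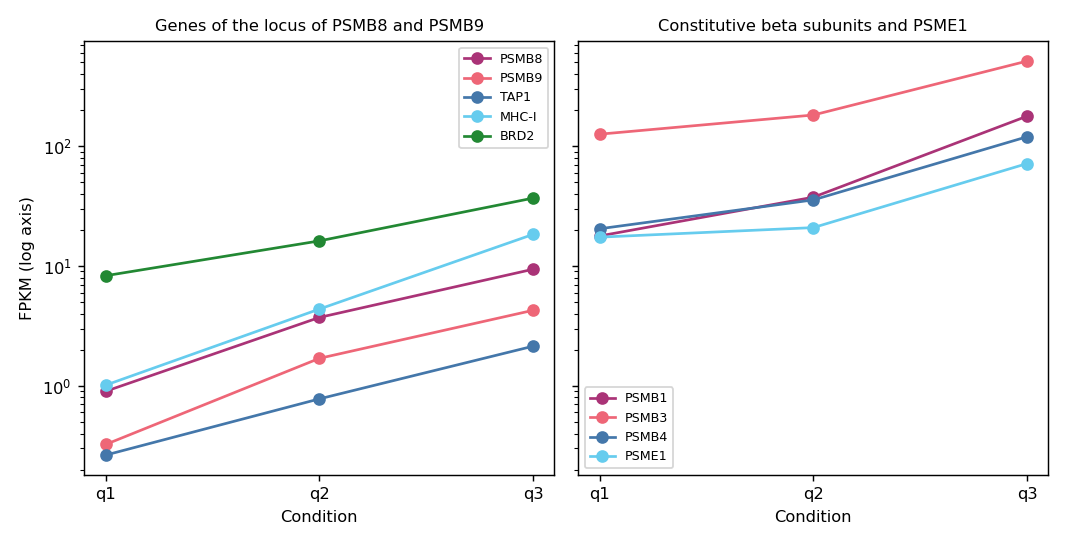
FPKM (log axis) in conditions q1, q2 and q3, with lines joining the values of 1 gene, for genes of the locus of PSMB8 and PSMB9 (left) and for constitutive beta subunits and PSME1 (right). The lines of PSMB8, PSMB9 and MHC-I are steeper between q1 and q2 than those of BRD2 and the constitutive subunits, and PSME1 has the flattest line there.

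Genes that act with the immunoproteasome did not all share this pattern. From a list of 18 genes of antigen processing and the interferon response, 12 were in the table and 6 passed the filter in each comparison, of which 4 lay above the median of all genes in q2 against q1 and 5 in q3 against q1. TAPBP, which holds MHC class I at the transporter, had 7.53, 21.6 and 62.8 FPKM, with distances of 0.91 and 1.10. B2M, the light chain of MHC class I, had 106 FPKM in q1 and 256 in q2, a distance of 0.67. IRF1, an interferon-induced transcription factor, had 0.819, 0.729 and 7.88 FPKM, a distance of -0.78 in q2 against q1, where its mean was under 1 FPKM, and 2.10 in q3 against q2, so its largest distance lay in another comparison than those of PSMB8 and PSMB9. NLRC5, the activator of MHC class I genes in human and mouse, had 1.03, 0.590 and 0.374 FPKM and was lowest in q3, where PSMB8 was highest. IFI35, an interferon-induced gene, had 10.1, 9.01 and 25.9 FPKM and lay 0.77 below the median in q2 against q1.

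The 11S activator, which in other mammals is also induced by interferon, lay below the median in q2 against q1 with TSS groups summed. PSME1 had 17.4, 20.9 and 71.6 FPKM in q1, q2 and q3, and PSME2 had 29.6 in q1 and 33.0 in q2. Their distances in q2 against q1, with TSS groups summed, were -0.34 and -0.45, the lowest of the 35 members. PSMB8 and PSMB9 were among the highest there. For PSME2 this depended on the sum, because its leading TSS group alone had a log2 ratio of 0.90. The median over all genes was 0.66 when each was taken by its highest TSS group, so that group of PSME2 lay above it. PSME1 has 1 TSS group and had a log2 ratio of 0.26. In q3 against q2 PSME1 lay 0.44 above the median, and in q3 against q1 it lay 0.08 above. The products of both genes form 1 ring, the genes lie 16.7 kb apart on chromosome 1, and PSME2 stood at 170% of PSME1 in q1 and 158% in q2. PSME4, which encodes the activator PA200, had 0.810, 1.13 and 2.91 FPKM and lay 0.12 below the median in q3 against q1. The inhibitor PSMF1 had 19.5, 30.6 and 93.0 FPKM, with distances of 0.04 and 0.29.

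The ATPases of the 19S base, PSMC1 to PSMC6, form a ring of 6 different subunits, and all 6 were measured in q1 and q2. PSMC3 had 20.5, 53.5 and 152 FPKM in q1, q2 and q3, and lay 0.78 and 0.93 above the median in q2 and in q3 against q1. PSMC5 had 13.9, 22.7 and 92.7 FPKM, a distance of 0.10 in q2 against q1 but 0.77 in q3 against q1. PSMC4 had 8.43, 15.7 and 39.5 FPKM and a distance of 0.26 in q3 against q1. PSMC1, with 19.5 FPKM in q1 and 29.5 in q2, lay at -0.01, and PSMC2 and PSMC6 had distances of 0.38 and 0.47 in q2 against q1. The 6 subunits of the ring had ratios of q2 to q1 between 1.51-fold for PSMC1 and 2.61-fold for PSMC3.

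Among the PSMD subunits of base and lid, PSMD11 and PSMD2 had the largest distances in q3 against q1. PSMD11, a structural subunit of the lid, had 3.67 FPKM in q1, 12.2 in q2 and 43.4 in q3, a distance of 1.13 in q2 against q1 and 1.60 in q3 against q1. PSMD2, a scaffold of the base that binds ubiquitin-like domains, had 19.3, 41.6 and 178 FPKM, with distances of 0.50 and 1.24, the latter 0.62 when its highest TSS group alone was used. Its partner in the base, PSMD1, had a similar level in q1 with 18.6 FPKM. PSMD1 had 33.8 FPKM in q2 and 86.0 in q3, and lay 0.25 above the median in both comparisons. PSMD14, the metalloprotease that removes ubiquitin chains, had 3.94, 8.71 and 24.0 FPKM with a distance of 0.64 in q3 against q1. PSMD7, its partner in the lid, was the most abundant lid gene at 40.5 FPKM in q1 and 73.2 in q2, with a distance of 0.25. PSMD3, another lid subunit, had 10.6, 14.9 and 40.7 FPKM and lay at -0.12 and -0.03. The remaining lid subunits PSMD6 and PSMD12 had distances of 0.52 and 0.31 in q3 against q1.

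In q3 against q1, with TSS groups summed, core chaperones held both the highest and lowest distance of the members that passed the filter. PSMG3, part of a chaperone pair of the core, had 0.744 FPKM in q1, 4.05 in q2 and 13.0 in q3, which was 5.45-fold higher in q2 and 17.5-fold higher in q3 than in q1, the largest ratios among the members that passed the filter. Its distance was 1.84 in q2 against q1 and 2.16 in q3 against q1. PSMG4, its partner, had 25.2, 38.5 and 81.7 FPKM, with distances of 0.00 and -0.27. PSMG2, of the other chaperone pair, had 1.70, 2.53 and 5.20 FPKM and was the lowest member in q3 against q1 at -0.35. This rested on the sum, because the leading TSS group of PSMG2 alone had 1.04 FPKM in q1 and 5.12 in q3. Its log2 ratio of 2.31 lay above 2.03, the median of all genes taken by their highest TSS group. PSMG1, the partner of PSMG2, had 1.77, 3.66 and 8.70 FPKM and lay at 0.33. Of the base chaperones, PSMD5 had 0.659 FPKM in q1 and 2.27 in q2, a distance of 1.18, and PSMD10, also known as gankyrin, had 8.56 and 14.7 FPKM with a distance of 0.17. PSMG3 and PSMD5 were both under 1 FPKM in q1, as PSMB8 and PSMB9 were.

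Start sites within a gene were compared through the share of each TSS group in the gene's FPKM. Of the 40 members, 21 had 2 or more TSS groups, and in 20 of these the same group led in q1 and q2. The exception was PSMD5, where the leading group of q1 went from 70.4% to 40.8%. Among the 16 of the 21 that are listed in full for q3, the same group led in all 3 conditions in 15, and the exception was PSMD2, where the leading group of q1 and q2 held 63.3% in q1, 59.6% in q2 and 42.9% in q3. The second group of PSMD2 went from 7.08 FPKM in q1 to 16.8 in q2 and 102 in q3, while the first group had 12.2, 24.8 and 76.5 FPKM.

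In PSMG2 and PSMD14 the minor group held little of the FPKM in q3. The leading group of PSMG2 held 60.9%, 53.3% and 98.4% in q1, q2 and q3, and that of PSMD14 held 74.8%, 75.2% and 97.4%. The second group of PSMG2 had 0.666, 1.18 and 0.0829 FPKM, and the second group of PSMD14 had 0.990, 2.16 and 0.624 FPKM. PSMG1 also had its highest share in q3, with 69.8%, 69.2% and 85.6% in its leading group. In PSMA4 a second group was seen in q2 alone, with 0.000316 FPKM in q1, 3.64 in q2 and 0.00616 in q3. PSMC5 had 60.0% of its FPKM in the leading group in q1 and 72.8% and 72.3% in q2 and q3. In PSME2 the leading group went from 44.9% in q1 to 75.1% in q2: it had 13.3 and 24.8 FPKM, while the other groups went from 7.23 to 5.40 and from 9.09 to 2.81 FPKM. Reads in exons shared by the transcripts of a gene are divided between TSS groups by estimation, and no error of these shares can be given.

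**Figure D5:**
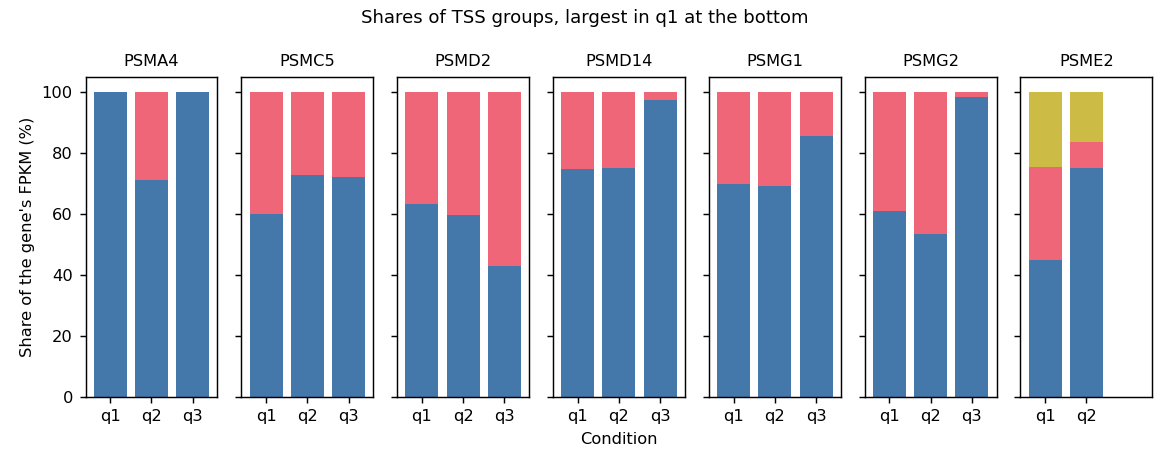
Share (%) of a gene's FPKM in each of its TSS groups in conditions q1, q2 and q3, with the group largest in q1 at the bottom, for 7 members. PSMG2 and PSMD14 are nearly wholly in the bottom group in q3, PSMD2 has less than 50% there only in q3, and PSME2 has no bar for q3 because it is not listed in full for that condition.

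Other genes of the pathway differed by group, with median distances in q2 against q1 of 0.26 for proteasome-associated factors, 0.32 for ubiquitin and its enzymes, -0.15 for shuttle and p97 factors and -0.13 for regulators. In q3 against q1 these medians were 0.52, 0.27, 0.34 and -0.11, so the shuttle and p97 factors lay below the median in one comparison and above it in the other. POMP, the chaperone that matures the core, had 18.2, 41.9 and 106.5 FPKM in q1, q2 and q3, with distances of 0.60 and 0.59. Of 13 proteasome-associated factors, 10 were in the table, and 6 of the 9 that passed the filter lay above the median in q2 against q1 and 4 of 6 in q3 against q1. USP14, a deubiquitinase that sits on the 19S base, had 1.91, 4.90 and 18.6 FPKM with a distance of 1.32 in q3 against q1. PAAF1, which binds the ATPases before the 19S particle is complete, had 5.89, 6.54 and 18.8 FPKM and a distance of -0.29.

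Of 12 genes for ubiquitin and for the enzymes that charge and transfer it, 10 were in the table, and 9 of 10 lay above the median in q2 against q1 and 5 of 7 in q3 against q1. UBE2K, a conjugating enzyme, had 2.66, 10.7 and 24.0 FPKM with distances of 1.40 and 1.21, and UBA6, the alternative activating enzyme, had 2.52, 1.99 and 5.62 FPKM with distances of -0.95 and -0.80. Among shuttle and p97 factors, which bring substrates to the proteasome, 3 of 7 lay above the median in q2 against q1 and 4 of 6 in q3 against q1. UFD1L, a cofactor of p97, had 6.63, 14.1 and 67.2 FPKM and a distance of 1.38 in q3 against q1, and UBQLN4, a ubiquilin, had 1.98, 2.46 and 5.0 FPKM and a distance of -0.63.

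The regulators of proteasome genes were low and lay near or below the median. NFE2L1, the transcription factor that drives proteasome genes when proteasome activity is short, had 1.73, 2.17 and 5.42 FPKM with distances of -0.28 and -0.32. NFE2L2, its relative in the oxidative stress response, had 3.35, 5.28 and 12.8 FPKM with distances of 0.05 and -0.03. All 5 regulators that passed the filter in q3 against q1 lay below the median of all genes, between -0.45 for MAFK and -0.03 for MAFG.

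Markers of cartilage, bone and clasts differed between the conditions, and they are given beside the results because their part in them was not tested. Of 12 cartilage markers 11 were in the table. COL2A1, the defining collagen of cartilage, was listed at 0 in q1 and q2, while the marker COL9A2 had 363, 120 and 373 FPKM. Whether the 0 for COL2A1 comes from its gene model was not tested. MATN1 had 33.6, 3.89 and 2.0 FPKM and was the lowest cartilage marker in q3 against q1. Of the 8 that passed the filter there, 7 lay below the median of all genes. The 1 above it was COMP, with 8.09, 4.70 and 47.6 FPKM and a distance of 0.59. The summed FPKM of the 8 cartilage markers listed for q3 was 770, 424 and 1174 in q1, q2 and q3, with a median distance of -1.71 in q3 against q1. The 7 bone markers summed to 1024, 4902 and 10422 FPKM and the 8 clast markers listed for q3 to 1254, 4322 and 20325 FPKM, with median distances of 1.21 and 1.77 in q3 against q1, and CALCR was listed at 0 in q1 and q2. In bulk tissue, fewer cells of a type and less RNA per cell cannot be told apart.

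PSMB8 and PSMB9 are known from cells of the immune system, so markers of blood lineages stand beside them. The 6 myeloid markers listed for q3 summed to 29.4, 47.0 and 156 FPKM in q1, q2 and q3, with C1QB at 0 in q1 and q2. TYROBP had 13.2, 26.9 and 69.4 FPKM, PTPRC had 0.447, 1.38 and 8.39 FPKM, and CSF1R had 3.97 in q1 and 19.1 in q2. Others were lower in q2 than in q1, with 5.17 and 2.87 FPKM for CD14 and 8.47 and 5.87 FPKM for C1QA, and the median distance of the 6 myeloid markers that passed the filter in q2 against q1 was 0.02. Erythroid markers had distances there of 3.31 for ALAS2, 1.16 for EPB42, 1.07 for AHSP and 0.86 for SLC4A1, although all but AHSP were under 1 FPKM in q1, and AHSP and SLC4A1 had a median distance of -0.10 in q3 against q2. The 4 lymphocyte markers in the table summed to 0.490, 0.886 and 1.82 FPKM, and each of them was under 1 FPKM in every condition. Endothelial markers summed to 13.4, 24.0 and 74.8 FPKM over 6 genes. Clast, myeloid, erythroid and endothelial sums were all lowest in q1 and highest in q3, as PSMB8 and PSMB9 and most genes were, and the part of these cells in the levels of PSMB8 and PSMB9 was not tested.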

How the data were processed

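RNA of laser-captured MC and malleus (P16, P18 and P20, 3 animals each) was amplified, sequenced and processed by the authors, whose notes name TopHat, Cufflinks and Cuffdiff. The sources used here name no version, genome build or annotation. The authors deposited condition values in FPKM for 37421 TSS groups, and 28026 of them (74.9%) are listed for q3 before the table stops. Columns with the authors' own fold changes, test statistics, p-values and q-values were not used. FPKM were summed over the TSS groups of a gene, and q3 was used only where every group is listed (16615 genes). Log2 ratios used no pseudocount, a mean of at least 1 FPKM, and centring on the median of all genes. Each member is named, with values by a rule on extremes of level and ratio within each role and pathway list. Members and lists were chosen with earlier results of these data known. RefSeq names (mMonDom1) served for neighbour order only. Python 3.11.15, numpy 2.4.6, pandas 2.3.3 and matplotlib 3.10.9 were used. Alternatives covered pseudocounts, filters, centring, TSS groups, the distance and the members.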

Additional observations from a re-analysis of the deposited data

How the results depend on the processing

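Over 11 alternatives the median distance of the members ran from -1.62 to 0.86 for q2 against q1. It ran from -0.39 to 2.34 for q3 against q1 (11) and from -0.0149 to 1.5 for q3 against q2 (10). Settings were counted as the same when the median kept its sign and lay within 1.5-fold of the main value. That limit is wider than the main distances themselves. By this rule 7, 8 and 8 settings were the same, with medians of 0.24 to 0.37, 0.27 to 0.78 and 0.16 to 0.65. Set against genes with a mean of at least 10 FPKM the median distance turned to -0.0196, -0.0357 and -0.0149. The members above the median went from 28 to 16, from 22 to 13 and from 21 to 11, with 3 at least 1 unit above in q2 against q1. Centring on CCT and ribosomal proteins gave -0.0245, 16 above and 3 apart in q2 against q1, and 1 apart in q3 against q2. Without centring the medians were 0.86, 2.34 and 1.5, with 14, 26 and 26 at least 1 unit higher. Over all genes the uncentred ratio had an upper quartile of 1.05 in q2 against q1. Its lower quartile was 1.17 in q3 against q1 and its median 1.33 in q3 against q2. Most genes therefore also passed 1 unit in the 2 comparisons with q3. Centring on summed FPKM gave -1.62 with 0 above, 0 apart above and 30 apart below in q2 against q1, -0.39 with 7 above, 1 apart above and 2 apart below in q3 against q1, and 3 apart above in q3 against q2. Over all genes PDZD4 holds 66.5% of the summed FPKM in q1 and 79.8% in q2. In q3 TBC1D22B holds 25.3% of the sum over the genes listed in full for q3. These shares are over different sets of genes, and the comparisons with q3 sum only the genes listed in full. With a distance of 0.5 the members above it were 9 of 35, 12 of 26 and 3 of 26, beside 22.5%, 29.1% and 23.4% of all genes. A pseudocount of 1 left 2 (PSMG3 and PSMD11) apart in q2 against q1, so that PSMB8, PSMB9 and PSMD5 were not, made 1 (PSMB1) in q3 against q2, and kept 6 in q3 against q1 with PSMC3 and PSMC5 in place of PSMB8 and PSMB9, and no filter on all genes made 9 in q3 against q1 and 1 in q3 against q2. With only the highest TSS group of each gene, 3 (PSMB8, PSMD11 and PSMG3) stood apart in q2 against q1, PSMB9 and PSMD5 being under the filter, and the median of PSMB8 and PSMB9 in q3 against q2 was -0.12. Of 2 alternatives chosen after seeing the data, no minimum FPKM for members put 1 gene at least 1 unit below in each comparison, and leaving out PSMB8, PSMB9, PSMB10 and PSMG3 left 2 and 3 above in q2 and in q3 against q1. The share of all genes at least 1 unit away was not computed for the pseudocounts, the other centrings, no filter or the highest TSS group. Counts of members apart in those settings therefore stand without a background and are not read as results. Beyond what each setting changes by construction, the cause was not tested. No paired analysis was possible because the columns hold condition values with no replicate, and for the same reason no replicate could be left out. No member was listed for q3 only among the tests placed first in the table, so that alternative left the same counts, with a median of 0.37 in q3 against q1. Without depth or a spread, ratios of members under 1 FPKM in q1 are the least certain.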
